A study of Mus musculus with 18 samples.

Results

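The fragments described here are the long tRNA-derived fragments (tRF) of the mitochondrial tRNA for arginine (mt-TR) that keep its mature 3′ end. They run from a start before or within the T and A runs near the 5′ side of the molecule to the last base of the CCA tail, and they are 51 to 69 nt long. Reads were counted as members when no base was missing at the 3′ end and when their own length, the mature length of mt-TR in the mitochondrial DNA (mtDNA) of that library (71 nt for C, 72 nt for F, 73 nt for H) minus the bases missing at the 5′ end, fell in that range. This gave 57 fragments, 19 starts in each mtDNA type, of 1112 fragments in the table when each type is counted separately. They held 10793 of 121943 reads (8.85%). The table holds reads of 40 to 69 nt, and the other CCA-ended reads in it, 33 fragments of 40 to 50 nt, held 5550.

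A tRNA folds into arms, of which the D arm lies towards the 5′ end and the T arm towards the 3′ end. The CCA tail is not encoded in the gene in animals and is added to the trimmed transcript by a nucleotidyltransferase, so a fragment that ends in CCA comes from a molecule whose 3′ end had already matured. Short pieces of tRNA are called tRF, and they are grouped by which part and which end of the tRNA they retain.

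Small RNA came from livers of healthy female mice aged 5 to 15 weeks, with 3 libraries in each of 6 strains. A strain is named by a pair of letters, nuclear genome first and mtDNA second, where the letters mean C57BL/6J (C), FVB/NJ (F) and C3H/HeN (H). Wild-type mice are CC, FF and HH. The strains HC, CH and CF are MNX (mitochondrial-nuclear exchange) mice made by pronuclear transfer between fertilized oocytes, in which the nuclear genome and the mtDNA come from different strains. Wild-type mice came from commercial vendors and MNX mice were bred in-house. All RNA was pooled and then pretreated to remove blocked ends and base methylation, and no source gives the number of animals behind a library, so p-values here measure the spread between libraries. Each mtDNA type was thus read in 6 libraries. Library totals in the table ran from 189 reads in CF replicate 3 to 23805 in CC replicate 3, and 4 libraries held fewer than 1000 (HC replicate 1, CF replicate 3, and CH replicates 1 and 2). Wild-type libraries held more reads than MNX libraries of the same mtDNA.

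The mt-TR gene (mt-Tr, ENSMUSG00000064361.1) has 1 exon of 68 nt and lies on the plus strand at chrM:9808-9875 of mm10. In mtDNA C its T run lies at 9818 to 9820 and its A run at 9821 to 9828, in what becomes the D loop, and the first member start is at 9810. The F sequence has 1 more A and the H sequence has 1 more A and 1 more T, as the mature sequences show. They are printed 5′ to 3′ in DNA letters with the T and A runs in capitals, because the starts of the members are read against these runs.
mature mt-TR, mtDNA C: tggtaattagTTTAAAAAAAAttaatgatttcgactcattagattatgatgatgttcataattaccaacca
mature mt-TR, mtDNA F: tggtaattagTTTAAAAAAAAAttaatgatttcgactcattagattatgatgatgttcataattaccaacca
mature mt-TR, mtDNA H: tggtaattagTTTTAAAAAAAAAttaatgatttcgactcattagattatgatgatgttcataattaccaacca

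Members of one type differ only in where they begin. Starts ran from nt 3 to 21 (C), nt 4 to 22 (F) and nt 5 to 23 (H), counted from the first base of mt-TR. The fragments from the first T of the T run and from the first A of the A run, which the results turn on, are shown for C and H, with the shortest member last. The shortest member has the same 51 bases in all 3 types, and the H fragment from the first A has the same 59 bases as that of F.
first T of the T run, mtDNA C, nt 11 to 71: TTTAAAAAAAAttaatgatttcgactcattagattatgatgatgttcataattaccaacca
first T of the T run, mtDNA H, nt 11 to 73: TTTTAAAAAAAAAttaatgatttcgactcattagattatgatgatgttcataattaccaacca
first A of the A run, mtDNA C, nt 14 to 71: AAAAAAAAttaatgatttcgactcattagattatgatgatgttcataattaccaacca
first A of the A run, mtDNA H, nt 15 to 73: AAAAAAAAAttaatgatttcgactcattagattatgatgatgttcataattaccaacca
last A of the A run, mtDNA C, nt 21 to 71: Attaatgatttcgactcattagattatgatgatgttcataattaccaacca

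The first question was how much of each library the long CCA-ended fragments made up. In mtDNA C they were 6.83%, 7.55% and 1.57% of the table total in CC replicates 1 to 3, and 33.97%, 9.50% and 7.38% in HC. In mtDNA F they were 2.01%, 3.19% and 4.18% in FF, and 31.7%, 7.62% and 38.6% in CF. In mtDNA H they were 50.2%, 17.5% and 34.3% in HH, and 30.4%, 39.2% and 26.9% in CH. All H libraries thus lay at 17.5% or more, whereas 5 of 6 C libraries lay at 9.50% or less and 4 of 6 F libraries at 7.62% or less. HC replicate 1, CF replicate 1 and CF replicate 3 were the libraries of C and F that overlapped with H. These held 733, 1815 and 189 reads, whereas HC replicate 2 (1547 reads) and CF replicate 2 (2361 reads) did not overlap with H. Among wild-type libraries, depth differed by mtDNA type, with 15335 to 23805 reads in CC, 6548 to 14476 in FF and 3578 to 6596 in HH. Type and depth therefore cannot be told apart in full, and depth was not tested as a cause. In the smallest library, CF replicate 3 with 189 reads, the 95% Wilson interval of the share ran from 31.98% to 45.7%, and in HH replicate 1 from 48.7% to 51.7%. These intervals cover counting error only.

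Averaged over libraries that share an mtDNA genome, the mean share of mtDNA C was 11.1% ± 11.5, that of F 14.6% ± 16.2 and that of H 33.1% ± 11.1 (SD over 6 libraries each). C was 21.95 percentage points below H, with 5 of 6 C libraries below the H mean (p = 0.00866, or 0.130 after adjustment over 15 tests, two-sided exact permutation test). F was 18.5 points below H (p = 0.0433, or 0.162 after adjustment, exact permutation test). Both failed the threshold of 0.05. Types C and F differed by 3.43 points, within the spread between libraries (p = 0.823, or 0.823 after adjustment, exact permutation test). C against H passed without HC replicate 1 alone, where the difference was 26.5 points (p = 0.0487 after adjustment, exact permutation test). In C and F, the libraries under 1000 reads, HC replicate 1 and CF replicate 3, had the highest share of their type. In H, the 2 such libraries, CH replicates 1 and 2, lay at 30.4% and 39.2%, within the range of the deeper H libraries. The deepest library of each type had the lowest share of its type (CC replicate 3 1.57%, FF replicate 1 2.01%, HH replicate 2 17.5%). In the libraries of at least 1000 reads, 5 of C and 4 of H, C lay at 1.57% to 9.50% and H at 17.5% to 50.2%, and C was 25.7 points below H (p = 0.00794, or 0.119 after adjustment, exact permutation test). This p is the smallest that 5 libraries against 4 can give. On its own among 15 tests it could not pass, so this comparison cannot decide.

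Within an mtDNA type, the nuclear genome was compared between 3 libraries and 3, a design in which p cannot go below 0.1. FF did not overlap with CF, at 3.13% ± 1.09 against 25.99% ± 16.3 (SD, n = 3, exact permutation test, p = 0.1, adjusted p = 0.5). CC and HC overlapped at 5.32% ± 3.27 and 16.9% ± 14.8 (exact permutation test, p = 0.2), and without HC replicate 1 the 2 HC libraries lay at 7.38% and 9.50%. HH and CH stood at 34.0% ± 16.4 and 32.2% ± 6.35 (exact permutation test, p = 0.9). Since FF is wild type with deep libraries and CF is MNX with shallow ones, genotype and depth cannot be told apart from the nuclear genome here. Over all 3 types, wild-type libraries lay 10.9 points below MNX libraries (exact permutation test within types, p = 0.0780, adjusted p = 0.130 over 5 tests).

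The same reads were next set against all CCA-ended reads of 40 to 69 nt. Here the libraries were close to each other. Long fragments were 64.6%, 68.1% and 67.7% of CCA-ended reads in CC, 64.2%, 71.01% and 72.5% in HC, 67.0%, 59.4% and 64.6% in FF, 66.3%, 72.6% and 61.3% in CF, 67.6%, 64.7% and 61.6% in HH, and 51.8%, 61.5% and 70.5% in CH. The lowest value belonged to CH replicate 1, which held 112 CCA-ended reads. Lengths of 51 to 69 nt are 19 of the 30 lengths held, or 63.3%, and 13 of 18 libraries lay above that figure.

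Averaged by type, C stood at 68.0% ± 3.33, F at 65.2% ± 4.64 and H at 62.9% ± 6.49 (mean ± SD, 6 libraries). C exceeded H by 5.09 points (p = 0.0952, or 0.286 after adjustment, exact permutation test) and F exceeded H by 2.28 (p = 0.530 by the same exact test). Counted only from nt 5, the first start that the lengths held allow in all 3 types, C exceeded H by 0.567 points. No nuclear comparison passed, with differences of 2.42 points for HC against CC, 3.35 for HH against CH and -3.04 for FF against CF (p = 0.818 after adjustment each, exact permutation test). So the long fragments spanned a 32.1-fold range between libraries as a share of the table and a 1.40-fold range as a share of the CCA-ended reads.

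Starts were then compared among the members. Of the 57 fragments, 51 had reads in all 6 libraries of their type. The exceptions were nt 4 and nt 20 in C, absent from HC replicate 2, and nt 5, 6, 9 and 20 in H, each absent from 1 CH library. A count of 0 in HC replicate 2 allows a share of up to 0.194% of the table, in CH replicate 1 of up to 1.57% and in CH replicate 2 of up to 1.29%.

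The most frequent member start was the first A of the A run in 8 libraries and a T of the T run in the other 10. No library had its peak before the T run. The first A was most frequent in CC replicates 1 and 3, HC replicate 3, all 3 FF libraries, CF replicate 1 and HH replicate 2. In CH replicates 1 and 3 the peak was the second T, nt 12, at 11 and 82 reads, and in CH replicate 2 nt 12 and the last T, nt 14, tied at 11 reads each. In HH replicates 1 and 3 it was the last T, nt 14, at 201 and 111 reads.

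The first T of the T run held more reads than the base before it in 18 of 18 libraries. At nt 11, C libraries held 126, 198 and 40 reads in CC and 22, 40 and 103 in HC, against 48, 69, 27, 12, 10 and 15 at nt 10. In F, nt 11 held 39, 48 and 29 reads in FF and 48, 39 and 14 in CF. In H, nt 11 held 163, 101 and 72 in HH and 3, 9 and 56 in CH. The ratio of nt 11 to nt 10 averaged 3.28 ± 1.97 (C), 2.99 ± 2.53 (F) and 2.93 ± 3.03 (H) (mean ± SD, 6 libraries), with a lowest value of 1.11 in HH replicate 3 and a highest of 9.0 in CH replicate 2, which rests on 9 reads and 1.

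As a share of CCA-ended reads, the first T start stood at 10.5% ± 4.99 in C, 9.32% ± 3.82 in F and 4.92% ± 1.46 in H (mean ± SD, 6 libraries). The highest H library, CH replicate 3 at 6.33%, lay above the lowest of C (5.67%, HC replicate 1) and of F (5.52%, CF replicate 1), so the types overlapped. In H the T run has 1 more start, and nt 12 held more than nt 11 on average, with 6.80% ± 2.40 of CCA-ended reads. HH replicate 2 was the exception, with 80 reads at nt 12 and 101 at nt 11. No test was run on single starts as a share of CCA-ended reads.

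The first A of the A run held 242, 174 and 107 reads in CC, 23, 20 and 175 in HC, 70, 54 and 33 in FF, 69, 33 and 4 in CF, 165, 217 and 92 in HH, and 5, 8 and 80 in CH. It exceeded the next A in 17 of 18 libraries, the exception being CF replicate 3 with 4 reads against 5. The ratio of the first to the second A averaged 6.91 ± 3.85 (C), 3.98 ± 2.66 (F) and 2.47 ± 1.17 (H) (mean ± SD, 6 libraries). As a share of CCA-ended reads the first A stood at 13.5% ± 6.29 in C, 9.41% ± 4.56 in F and 6.82% ± 3.11 in H, the highest mean of any member in each type, though the next mean (nt 11 in C and F, nt 12 in H) lay within the spread between libraries. Its lowest C library, HC replicate 1 at 5.93%, lay below the highest H library, HH replicate 2 at 12.2%.

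After these, the members of highest mean share were nt 11 and nt 12 in C and in F (6.32% ± 1.73 and 5.25% ± 1.84 at nt 12), and nt 12 and nt 14 in H (5.58% ± 1.85 at nt 14). The other 16 members of each type had mean shares of 0.970% to 5.95% of CCA-ended reads in C, 0.770% to 5.06% in F and 0.471% to 5.11% in H. The least frequent was nt 20 in C and nt 5 in both other types. At the far end of the A run, the 51 nt member from the last A had a higher mean share than the start 1 base before it, with 3.56% ± 2.02 in C against 0.970% ± 0.71, 4.67% ± 2.40 against 1.08% ± 0.74 in F, and 3.73% ± 1.92 against 2.28% ± 1.06 in H (mean ± SD, 6 libraries). This was given as a description, and no test was run.

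Grouped by region, starts in the T run made up 33.2% ± 10.4 of long CCA-ended reads in C, 29.9% ± 7.93 in F and 35.7% ± 6.89 in H. In the same order, starts in the A run made up 40.2% ± 10.7, 43.5% ± 8.57 and 48.9% ± 6.80 (mean ± SD, 6 libraries). Per start, the T run was used more than the A run and more than the bases before it in 18 of 18 libraries, with 11.1% ± 3.46, 9.95% ± 2.64 and 8.93% ± 1.72 of member reads per T start in C, F and H. A start in the A run held 5.03% ± 1.34, 4.83% ± 0.95 and 5.44% ± 0.75, and a start before the runs 3.32% ± 1.01, 3.81% ± 0.99 and 2.56% ± 0.71. Since the number of starts before the runs differs between types by the length limit, the values before the runs are per start and not totals.

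No difference between mtDNA types passed for either region. The A run share was 8.67 points lower in C than in H (p = 0.123, or 0.308 after adjustment, exact permutation test), and the T run share 2.50 points lower (p = 0.639, or 0.737 after adjustment, exact permutation test). The A run has 8 starts in C and 9 in H, and the length limit adds starts before the runs in C. Counted only from nt 5, C lay 5.66 points below H for the A run and 0.316 for the T run.

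For the T run, HH and CH stood apart. The share was 32.0%, 27.9% and 28.9% in HH and 41.4%, 40.7% and 43.4% in CH, with no overlap (exact permutation test, p = 0.1, the smallest this design can give). With mtDNA C the order of the nuclear genomes was the other way round, at 26.8%, 31.0% and 24.9% in CC and 28.1%, 53.1% and 35.3% in HC, which overlapped. HC exceeded CC by 11.3 points, HH minus CH was -12.2 points, and the difference of these, the interaction of nucleus and mtDNA, was 23.5 points (two-sided exact permutation test, 400 arrangements, p = 0.01, adjusted p = 0.05 over 5 measures), which is not under 0.05. Without HC replicate 1 it was 28.8 points with an adjusted p of 0.025 by the exact permutation test. HC and CH are both MNX strains, and over the 3 types wild-type libraries lay 8.40 points below MNX libraries in T run starts (exact permutation test within types, p = 0.025, adjusted p = 0.125), so nuclear combination and MNX status cannot be told apart here. CH replicates 1 and 2 rest on 58 and 91 member reads.

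The long CCA-ended fragments have partners that begin at the same bases and end 19 nt before the mature end. That end is the site where the predominant fragment of the study stops. Starts from nt 5 to the last T can be compared, since from the A run such partners are 40 nt long or shorter and are mostly outside the lengths held. Of the reads with one of these 2 ends, CCA ends made up 14.1%, 20.8% and 11.2% in CC, 78.7%, 36.8% and 11.1% in HC, 9.24%, 20.1% and 17.3% in FF, 58.9%, 26.9% and 78.7% in CF, 95.2%, 28.7% and 83.0% in HH, and 80.5%, 67.7% and 66.7% in CH. Site-ended reads were the majority in all wild-type libraries of C and F, and CCA-ended reads were the majority in all H libraries but HH replicate 2.

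By type, C averaged 28.8% ± 26.3, F 35.2% ± 27.4 and H 70.3% ± 22.97 (mean ± SD, 6 libraries). C lay 41.5 points below H (p = 0.0238, or 0.162 after adjustment, exact permutation test) and F 35.1 points below H (p = 0.0368, or 0.162 after adjustment, exact permutation test). FF lay below CF without overlap, at 15.5% ± 5.63 and 54.8% ± 26.1 (SD, n = 3, exact permutation test, p = 0.1, adjusted p = 0.5). Without HC replicate 1, C against H passed with a difference of 51.5 points (p = 0.0487 after adjustment, exact permutation test).

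At nt 11 the 2 ends could be seen for a single start. In CC the site-ended fragment from nt 11 had 1748, 1853 and 746 reads beside the 126, 198 and 40 CCA-ended reads, and in HC 26, 139 and 1773 beside 22, 40 and 103. In FF it had 780, 604 and 496 and in CF 130, 217 and 5. In HH it had 23, 630 and 69 and in CH 2, 15 and 83. HH replicate 2, with 630 reads, was the H library where site-ended reads outnumbered CCA-ended reads most. Over all libraries of a type, the site-ended reads from nt 11 were 6285 of C, 2232 of F and 822 of H, beside 529, 217 and 404 CCA-ended reads.

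Partners that lack only the last A of the tail, and so end in CC, were also counted for the same starts. They were 20.02% ± 14.7 of CC-ended plus CCA-ended reads in C, 12.3% ± 6.00 in F and 8.14% ± 2.54 in H (mean ± SD, 6 libraries). By strain they were 29.6% ± 14.3 in CC and 10.4% ± 7.61 in HC, 16.8% ± 3.24 in FF and 7.84% ± 4.41 in CF, and 8.52% ± 2.05 in HH and 7.76% ± 3.40 in CH (SD, n = 3). The higher means were thus those of CC and FF, whereas the means of HC and CF lay near HH and CH. By library, HC overlapped with CC, since HC replicate 3 stood at 18.9% and CC replicate 2 at 16.8%. CF, at up to 12.6%, stayed below FF, at 13.9% or more. HC replicates 1 and 2 and CF replicate 3 held only 11, 13 and 3 CC-ended reads. In C, 502 of 1120 such reads (44.8%) began at the first A of the A run, against 57 of 264 (21.6%) in F and 100 of 494 (20.2%) in H. Among reads from the first A, CC ends made up 42.9%, 32.3% and 59.6% in CC, but 4.17%, 20% and 29.4% in HC, where replicates 1 and 2 held 24 and 25 such reads in all. No test was run on these shares.

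Single members were tested with edgeR after matching starts between the types. Gaps of the alignment were placed at the left of the runs, so that starts are counted back from the end of each run. A run starts matched in this way have the same sequence in the types compared (8 of C and F, 9 of F and H), and nt 11 of C and F is matched with nt 12 of H. Of 21 matched members, 17 can be listed in all 3 types, and all 17 passed the filter on low counts, within 67 fragments of all kinds. Normalized reads are reads per 1000000 reads of the table, and fold changes between types average the wild-type and the MNX strain of each type on the log2 scale.

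For C against H, 12 of 17 members were called lower in C and 0 higher (edgeR, adjusted p under 0.05), against 37.3% of all 67 fragments called lower. The median log2 fold change of the members was -1.82, and that of all 67 fragments was -0.65. The shorter CCA-ended fragments moved the same way, with 11 of 11 called lower and a median of -2.29. The largest changes were those of starts within the A run. The 52 nt fragment from the second last A (nt 20 in C, nt 22 in H) had 24, 39 and 3 reads in CC, 4, 0 and 6 in HC, 62, 30 and 70 in HH and 4, 3 and 8 in CH. Its normalized reads were 1691 ± 2033 in C and 12681 ± 7360 in H (mean ± SD, 6 libraries), or -3.06 ± 0.79 on the log2 scale (SE; adjusted p = 0.00356 in edgeR). The fragment 1 base longer (nt 19 in C, nt 21 in H) changed by -2.87 ± 0.68 (edgeR adjusted p = 0.00262), and the one from nt 16 in C and nt 18 in H by -2.86 ± 0.75 (edgeR adjusted p = 0.00356).

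The start at the first T of C (nt 11, matched with nt 12 of H) was called lower in C by a smaller amount, with 15026 ± 10806 normalized reads in C and 36204 ± 16262 in H (mean ± SD, 6 libraries) and a log2 fold change of -1.44 (SE 0.57, adjusted p = 0.0352 in edgeR). This call was lost when any one of 10 libraries was left out (CC replicates 1 and 3, HC 2 and 3, FF 2 and 3, HH 1 and 3, CH 1 and 2), with changes of -1.50 to -1.19 and edgeR adjusted p of 0.0502 to 0.112. It was also lost with TMM scaling (-0.43, adjusted p = 0.347), without the filter (adjusted p = 0.147), in libraries of at least 1000 reads (adjusted p = 0.0863) and with gaps at the right of the runs, where nt 11 is matched with nt 11 (-1.004, adjusted p = 0.130), all in edgeR, and DESeq2 gave 0.50. One A run start did not follow the others. The fragment that begins at the first A of C, nt 14, has the same sequence as that from the second A of H, nt 16, and the pair had 16118 ± 9510 and 15317 ± 6524 normalized reads (mean ± SD, 6 libraries), with a log2 fold change of 0.03 (SE 0.59, adjusted p = 0.964 in edgeR). With gaps at the right of the runs, the first A of C is matched with the first A of H, nt 15, and the change was -1.12 (adjusted p = 0.0721 in edgeR). The 5 members not called lower were this one and the starts at nt 5, 6, 7 and 9, whose changes ranged from -1.57 to -0.84. Leaving out CC replicate 3, HC replicate 2 or HC replicate 3 left 7 members called for C against H. Of all fragments, 18 of 73, 18 of 79 and 17 of 73 were then called lower. Members of one library share its total and its reads, so the 12 calls are not independent of each other, and their summed share did not pass the permutation test above.

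For F against H, 12 of 17 members were called lower in F and 0 higher, against 37.3% of all fragments called lower. At nt 9, 15, 17 and 18 of F, which were among those called, only FF lay below its H counterpart, HH, in mean. There the mean of CF lay above that of CH, as with 16195 against 12874 normalized reads at nt 17. In the other members called, FF lay below HH and CF below CH in mean. The member median was -1.85 and that of all fragments -0.76. Of the shorter CCA-ended fragments, 10 of 11 were called lower, with a median of -2.15. The largest change was that of nt 16 in F, matched with nt 17 in H, which had 8, 9 and 5 reads in FF, 43, 3 and 1 in CF, 133, 61 and 86 in HH and 3, 7 and 38 in CH. Its log2 fold change was -2.93 (SE 0.69, adjusted p = 0.00358 in edgeR). The fragments from nt 21 and nt 19 of F followed at -2.77 ± 0.78 and -2.60 ± 0.63 (edgeR adjusted p = 0.00755 and 0.00358). Leaving out FF replicate 1 or CF replicate 2 left 7 members called, against 18 of 72 and 19 of 79 of all fragments called lower. Under DESeq2, 1 member was called lower in F and 1 higher, against 2 and 28 of all 67 fragments. The member median under DESeq2 was -0.15. This comparison and the one before share the H libraries. Between C and F, edgeR called 0 of 17 members, against 1.49% of all fragments. Its unadjusted p was under 0.05 in 3 of all 67 fragments and in 1 member. DESeq2 called 2 of all 67 fragments and 1 member. That member was the fragment from the first A of C, with a log2 fold change of 1.87 ± 0.60 in edgeR (adjusted p = 0.1001).

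Within mtDNA F, 16 of 17 members were called lower in FF than in CF, against 34.3% of all fragments. In 10 of the 17, all FF libraries lay below all CF libraries, against 29.9% of all fragments. Every member had reads in CF replicate 3, where 1 read is 5291 normalized reads, above the highest FF value of any member (4429). In that library a single read was therefore enough to lie above FF, and the count of 10 rests on CF replicates 1 and 2. The member median was -3.01 and that of all fragments -1.23. Of the shorter CCA-ended fragments, 7 of 11 were called lower, with a median of -2.46. The largest change was that of nt 20, with 7, 11 and 3 reads in FF and 32, 7 and 3 in CF, from libraries of 14476, 12647 and 6548 reads and of 1815, 2361 and 189. It had 604 ± 231 normalized reads in FF and 12156 ± 8008 in CF (SD, n = 3), a log2 fold change of -4.17 (SE 0.999, adjusted p = 0.00451 in edgeR). Starts at nt 16 and nt 18 followed at -3.99 ± 1.02 and -3.86 ± 0.99 (edgeR adjusted p = 0.00451 each). These calls rested on single libraries. Leaving out CF replicate 1 left 1 member called, the only call among 76 fragments. The count was 8 when CF replicate 3 was left out, 5 for FF replicate 1 and 6 for FF replicate 2. Of all fragments, 10 of 78, 7 of 72 and 10 of 73 were called in these.

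For HC against CC, edgeR called 0 of 17 members, against 0% of all fragments. Its unadjusted p was under 0.05 in 5 members and in 14 of all 67 fragments. DESeq2 called 0 members and 2 of all 67 fragments, with those 2 lower in HC. All 17 log2 fold changes were above 0, with a median of 1.66, and in 2 members every HC library lay above every CC library, against 8.96% of all fragments. Without HC replicate 1 the median was 0.48. For HH against CH, 0 of 17 members were called (0 at an unadjusted p under 0.05, and 0 by DESeq2), against 0% of all fragments, and the changes ranged from -0.92 to 1.03.

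Because normalized reads are shares of a whole, fold changes move with the scaling. Between C and H the median of all 67 fragments moved from -0.65 with the table total to 0.40 under TMM scaling and 1.499 under DESeq2. Relative to it, the median of the members stood at -1.17, -1.30 and -1.58 in turn. For F against H the same difference was -1.08, -1.10 and -1.18. A change of scaling shifts all fragments of a library together, so such differences between medians change little by construction. That they stayed similar is therefore no test of the members. The median of all fragments also includes the members themselves and the shorter CCA-ended fragments. Members called lower for C against H were 12, 7 and 4 under the 3 scalings, against 25, 15 and 5 of all 67 fragments. Members called higher were 0, 1 and 2, against 5, 22 and 35 of all 67. These were the fragment from the first A of C under both TMM scaling and DESeq2 and that from nt 7 under DESeq2. For F against H, 12, 8 and 1 members were called lower and 0, 0 and 1 higher. Of all 67 fragments, 25, 16 and 2 were called lower and 3, 18 and 28 higher. For FF against CF the member median stood at -1.78, -1.58 and -1.51 relative to that of all fragments. Members called lower in FF were 16, 6 and 0, against 23, 7 and 0 of all 67 fragments. None was called higher, against 0, 1 and 6 of all 67.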

How the data were processed

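The values deposited by the authors are raw read counts, 1 per sequence and library, without normalization. Per the labels and the study's methods, UMI-tools 1.1.6, cutadapt 5.0, BWA 0.7.18, Bowtie 1.3.1 and FastQC 0.12.1 were used, reads were mapped without mismatch to mature mt-TR of their own mtDNA type, reads sharing a molecular identifier were collapsed, and sequences found elsewhere in mm10 were removed. Starts are therefore counted in the bases of each type's own sequence, and a start in H or F has to be aligned before it is set beside one in C. Lengths outside 40 to 69 nt were not analysed here, so the table total is not the full depth. Depth ran from 189 to 23805 reads, and intervals and limits (3 reads where none were seen) cover counting error only.

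Members and lists were chosen with earlier results of these data known. From the counts, 5 shares per library were computed and compared by two-sided exact permutation tests (SciPy 1.17.1) with Benjamini-Hochberg adjustment over 15 tests for mtDNA types, 15 for nuclear genomes, and 5 each for wild type against MNX and for the interaction. Single fragments were tested on the counts with edgeR 4.0.16 (quasi-likelihood, 6 groups in one fit, table total as library size, filterByExpr, Benjamini-Hochberg over 67 fragments), and DESeq2 1.42.0 was an alternative. Named fragments were those from the first T and the first A, the 3 of highest mean share per type, and the 3 largest called changes per comparison that held their direction in wild type and in MNX strains or, for nuclear genomes, did not overlap. Other alternatives were TMM scaling, no filter, gaps at the right of the runs, the replicate number as a block, log2 odds with 0.5 added, libraries of at least 1000 reads, starts from nt 5, a nuclear block, and each library left out. On simulated data with 10 of 67 fragments changed by 4 on the log2 scale for C against H, edgeR recovered 100% of them and called 0.965% of the others. In 20 simulations without change it made 2 calls. The largest member change for C against H was -3.06, so recovery of changes of the size seen was not tested.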

Additional observations from a re-analysis of the deposited data

Results flagged for a closer look

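A gap test (Dixon's, 95% level) was run on the 6 libraries of each mtDNA type for the 5 shares, 15 tests in all, and chance flags about 1 in 20. It set 2 libraries apart, both in HC. The share of long CCA-ended fragments in the table was 33.97% in HC replicate 1, against 1.57% to 9.50% in the other libraries of mtDNA C. That library held 733 reads. The share of member reads that begin in the T run was 53.1% in HC replicate 2, against 24.9% to 35.3% in the others. That library held 147 member reads, 78 of which began in the T run.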

How the results depend on the processing

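Of 40 differences in shares, none passed an adjusted p of 0.05 by exact permutation test with all libraries. Without HC replicate 1, 4 passed (C against H in the share of the table and of CCA ends, and in T run starts the interaction and wild type against MNX). Without HH replicate 1, 3 wild type against MNX differences passed, and without CF replicate 1, 1 did.

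Directions turned, with none passing, in libraries of at least 1000 reads for the share of CCA-ended reads (F against H -0.0951, HH against CH -5.90, interaction 10.8), the interaction in the table share (-3.96), T run starts in C against H (1.17) and CCA ends in HH against CH (2.31), which on log2 odds gave 0.418. From nt 5, the share of CCA-ended reads gave -0.0774 for F against H and 2.07 for the interaction.

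With each library left out, differences in points ranged as follows where any call or direction changed. The table share ranged from -26.5 to -18.5 for C against H, -8.00 to 1.38 for C against F, -13.95 to -8.05 for wild type against MNX and -6.28 to 10.1 for HH against CH. The share of CCA-ended reads ranged from -2.28 to 0.839 for wild type against MNX, -5.56 to 3.80 for the interaction and -1.39 to 7.97 for HH against CH. T run starts ranged from -0.617 to 6.27 for C against F, -10.2 to -6.03 for wild type against MNX, 16.4 to 28.8 for the interaction and -6.25 to 5.12 for FF against CF. A run starts ranged from -5.41 to 0.218 for C against F, -13.3 to 0.745 for HC against CC and -9.02 to 1.34 for FF against CF. CCA ends against the site ranged from -51.5 to -36.5 for C against H, -16.4 to 2.30 for C against F, -28.1 to -16.2 for wild type against MNX and -15.8 to 17.5 for HH against CH.

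Members called by edgeR with each library left out ranged from 7 to 15 for C against H (7 without CC replicate 3, HC replicate 2 or HC replicate 3), 7 to 13 for F against H (7 without FF replicate 1 or CF replicate 2), 0 to 1 for C against F and 1 to 17 for FF against CF. All fragments called at the low ends of C against H, F against H and FF against CF are given above. At the high ends, without HC replicate 1, 30 of 77 fragments were called lower for C against H and 31 of 77 for F against H. Without CF replicate 2, 27 of 79 were called lower for FF against CF. A strain left with a single library is assumed to vary like the other groups. No filter gave 7, 7 and 9 for C against H, F against H and FF against CF, all lower. Of the 450 fragments in the adjustment, 24, 19 and 13 were called lower. DESeq2 gave 6, 2 and 0 for the same comparisons, against 40, 30 and 6 of all 67 fragments. For C against F, DESeq2 and TMM scaling each gave 1, against 2 of all 67. TMM scaling gave 6 for FF against CF, against 8 of all 67. Libraries of at least 1000 reads gave 6 for F against H and 10 for FF against CF. Where the cause of a change is not given here, it was not tested. Under DESeq2 the log2 fold changes of the first T start turned to 0.50 for C against H and 0.26 for F against H, and that of nt 12 of C to 0.059 for C against H. The first A of C against the second A of H stood at -0.21 to 0.24 with each library left out. With gaps at the right, which sets the first A of C against the first A of H, the change was -1.12.

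The replicate block, in which the number is a term, gave 8 members called for FF against CF and 11 for C against H. Of all 67 fragments, 13 and 30 were called in these. The block changed no call among the shares. Same-numbered libraries did not deviate together. Of 45 pairs, 17 had a correlation of deviations above 0.1, the mean was -0.016, and 7 of 18 libraries correlated best with their own number, so the numbers pair nothing here.

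Precision is limited by the 4 libraries under 1000 reads, in which the members rest on 58 to 249 reads, and by 6 libraries per type.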
